A study of Mus musculus with 6 samples.

Results

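The liver X receptors LXRβ (Nr1h2) and LXRα (Nr1h3), 6 of the genes LXR is known to regulate (Abca1, Abcg1, Apoe, Mylip, Lpcat3 and Srebf1), the lipid transporter Abca9 and the desaturase Scd2 were followed in J774 macrophages with and without NCOA4 siRNA. These 10 genes were taken by name from the 55487 Ensembl genes of the deposited tables, and all 10 were found and passed the filter on low expression, as did 13829 genes in all. J774 is a mouse macrophage line, and NCOA4 is the receptor that brings ferritin to the lysosome for iron release. The series held 6 libraries, 3 biological replicates of cells given control siRNA (siControl) and 3 of cells given NCOA4 siRNA (siNCOA4). Both groups were the same unmodified cell line and received siRNA in liposomes, and the labels name no other treatment and no time after transfection. A single NCOA4 siRNA was used, so effects of NCOA4 loss and of that siRNA on other transcripts cannot be told apart in these libraries.

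LXRs are nuclear receptors that sense oxysterols and sterol intermediates such as desmosterol. Bound to their partner RXR, they switch on genes that move cholesterol out of the macrophage, through the ABC transporters ABCA1 and ABCG1 and the lipid carrier apolipoprotein E. They also raise MYLIP (IDOL), a ubiquitin ligase that limits lipoprotein uptake, LPCAT3, which places polyunsaturated chains in phospholipids, and SREBP-1c, a product of Srebf1 that drives fatty acid synthesis. In macrophages this programme is known for limiting cholesterol overload and for its link with inflammatory signaling.

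Expression was measured by poly(A)-selected RNA-seq and is given as TPM, that is, reads per gene length scaled to a sum of 1000000 in each library. Reads rebuilt from TPM numbered 14833874 to 17464819 per library, and 1 read on a transcript of 2 kb was worth 0.0825 to 0.0959 TPM. Ncoa4 itself was at 19.7, 22.5 and 22.4 TPM in siControl replicates 1 to 3 and at 9.63, 8.60 and 8.88 TPM in siNCOA4 replicates 1 to 3, which is 41.9% of control. All 8 macrophage markers passed the expression filter, with summed levels of 8589 to 8771 TPM in siControl and 8901 to 9001 TPM in siNCOA4. Of these, Adgre1, Csf1r and Fcgr1 were higher and Cd14 was lower with NCOA4 siRNA at a limma adjusted p under 0.05. That is 4 of 8, against 5.42% of all genes. Itgam and Lyz2 were higher and Cd68 lower in every siNCOA4 library without passing (limma, adjusted p = 0.101, 0.160 and 0.178), and Spi1 overlapped. The groups thus did not overlap for 7 of the 8 markers, against 28.4% of all genes. The 10 markers of other cells summed to at most 0.738 TPM, and Cd3e, Ms4a1, Ly6g and Alb were among those at 0 in every library. siControl replicate 1 stood apart from the other 2 control libraries, with a chi-square per gene of 9.70 and 9.31 against them, where replicates 2 and 3 gave 3.55. It also held the largest share of mitochondrial transcripts (12.9% of TPM, against 9.36% to 10.2% in the other 5 libraries), and values that move by over 1.5 times without it are given beside each of the 10 genes. In bulk RNA, fewer cells that express a gene and less of its transcript per cell cannot be told apart.

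Abca9 was the member that rose with NCOA4 siRNA. Apoe was higher in every siNCOA4 library without passing the test, and the fitted changes of the other 8 genes lay between -0.16 and 0.12 on the log2 scale. A gene was called where limma's p, adjusted by Benjamini-Hochberg over all 13829 genes, was under 0.05. Abca9 was the 1 call among the 10 genes, against 5.42% of all genes (3.11% called higher and 2.31% called lower). With a fold change above 1.5 as a second condition, it was again 1 of 10, against 1.18% of all genes. The 10 genes were chosen with earlier results of these data known, so this count cannot be read as an excess. Apoe was next in size and missed the threshold (limma, adjusted p = 0.0535). The median log2 fold change of the 10 genes was 0.05, beside 0.03 for all genes tested. The groups of libraries did not overlap for 3 of the 10 (Abca9 and Apoe higher, Lpcat3 lower), which is near the 28.4% of all genes that did not overlap. Of the 750 genes called in all, 57.3% were higher with NCOA4 siRNA, a share that fell to 35.9% with median centring of the libraries and to 49.2% after quantile normalization.

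**Figure D1:**
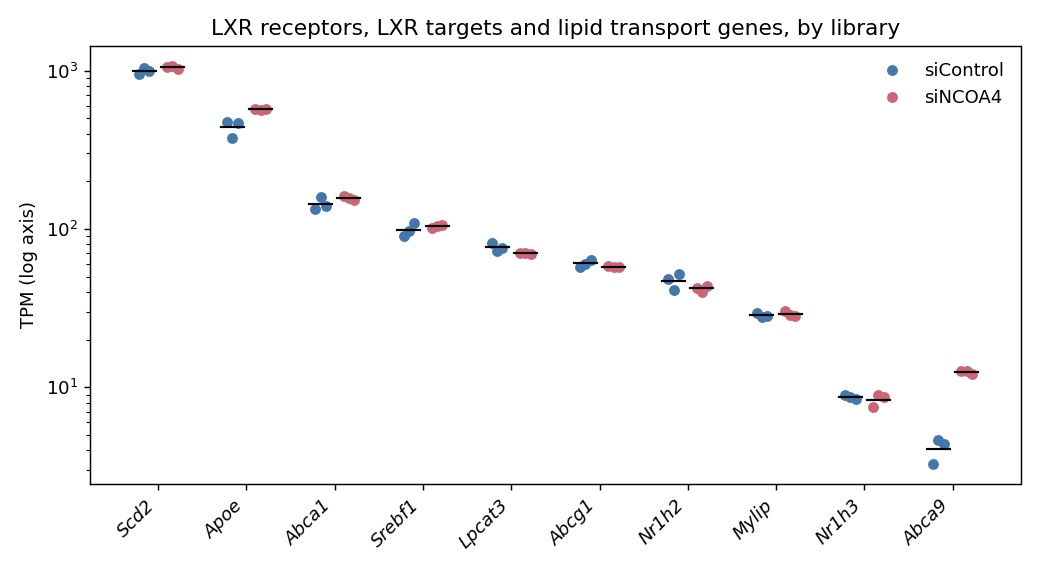
TPM of the 10 genes on a log axis, ordered by their mean in siControl; each point is 1 library (3 siControl in blue, 3 siNCOA4 in red) and each bar a group mean. The 3 siNCOA4 values of Abca9, from 12.1 to 12.6 TPM, sit above the control values of 3.29 to 4.65 TPM, while the points of most other genes lie at nearly the same height in both groups.

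**Figure D2:**
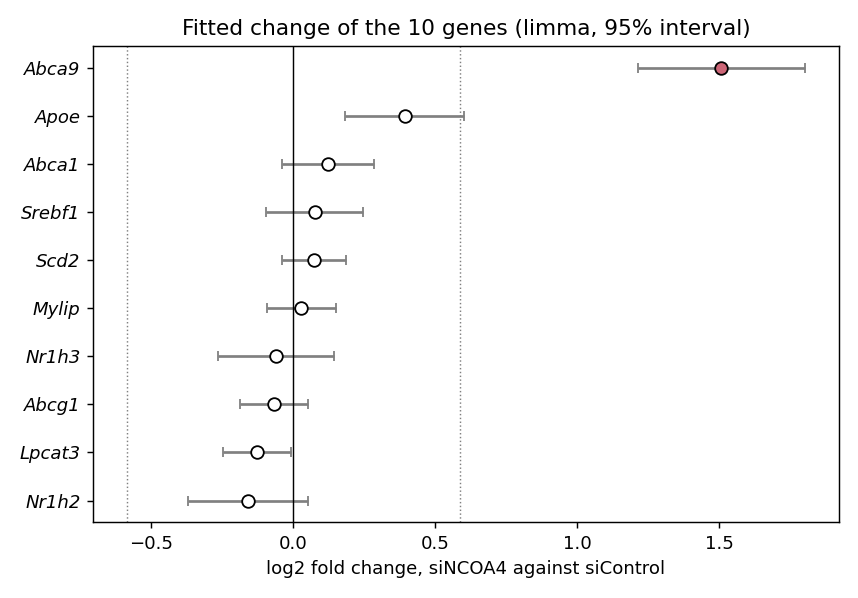
Fitted log2 fold change of each gene, siNCOA4 against siControl, with its 95% interval from limma; the filled point is the gene called at an adjusted p under 0.05 and dotted lines mark a fold change of 1.5. Abca9 stands at 1.51, Apoe at 0.39, and the other 8 lie between -0.16 and 0.12.

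The receptors were measured first. Nr1h2 (chromosome 7, 44549616 to 44553951, minus strand; GRCm38, as are all positions here), the LXR found in most tissues, was at 48.2, 41.2 and 52.2 TPM in siControl replicates 1 to 3 and at 42.6, 40.0 and 43.7 TPM in siNCOA4 replicates 1 to 3. The groups overlapped, and control replicate 2 lay within the siNCOA4 range. The log2 fold change was -0.16 with a 95% interval of -0.37 to 0.05 (limma, adjusted p = 0.355), and the value moved to -0.252 without control replicate 2 and to -0.084 without control replicate 3. Nr1h3 (chromosome 2, 91184061 to 91202834, minus strand), the LXR typical of macrophages, liver and fat, was much lower, at 9.001, 8.66 and 8.47 TPM in siControl and at 7.46, 8.90 and 8.70 TPM in siNCOA4. These values rest on 109 to 132 reads per library. Only siNCOA4 replicate 1 lay outside the control range, and the log2 fold change of -0.06 had an interval of -0.26 to 0.14 (limma, adjusted p = 0.734). It was -0.037 without control replicate 1, -0.105 without siNCOA4 replicate 2 and 0.015, with the sign turned, without siNCOA4 replicate 1. Nr1h2 transcripts outnumbered those of Nr1h3 per length by 5.43 ± 0.706 in siControl and by 5.07 ± 0.613 in siNCOA4 (SD, n = 3 each; exact two-sided permutation test, p = 0.6).

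Abca1 and Srebf1 were the members whose promoter windows came closest to an LXR response element, and these stretches are shown so that their letters can be read against it. The consensus is a repeat of AGGTCA with 4 bases between its copies. RefSeq windows (GRCm38.p6) from 250 bases before to 50 bases after the transcript start were found for 8 of the 10 genes, 13 windows in all, and both strands were searched. With at most 1 mismatch in each copy, 0 of the 13 windows held the repeat, against 1.75% of all 32851 windows. No window was found for Abcg1 or Scd2, and sequence outside the windows was not searched, so elements there would be missed. With at most 3 mismatches over the 12 bases of both copies, a limit chosen after the windows had been read, 1 window each of Abca1 and Srebf1 matched, against 21.9% of all windows. The Abca1 stretch lies 67 to 52 bases before its start (chr4:53159947-53159962) and that of Srebf1 182 to 167 bases before its start (chr11:60210638-60210653), both on the strand opposite to the gene. The copies of the 6-base unit are in capitals, and the closest stretch of the Abca9 window (chr11:110168228-110168243), with 4 mismatches, a number that 76.9% of all windows reach or better, is shown for comparison.
Abca1: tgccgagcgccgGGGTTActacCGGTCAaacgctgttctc
Srebf1: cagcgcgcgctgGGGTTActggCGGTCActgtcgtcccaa
Abca9: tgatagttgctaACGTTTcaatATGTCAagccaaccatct
The stretches were compared by their letters alone, and neither binding nor activity was tested here. The shares of all windows cannot say whether LXR acts at a given stretch.

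Cholesterol efflux to apolipoprotein A-I runs through Abca1 (chromosome 4, 53030787 to 53159895, minus strand), which was among the most abundant of the 10 transcripts. It was at 133, 159 and 140 TPM in siControl replicates 1 to 3 and at 162, 156 and 152 TPM in siNCOA4 replicates 1 to 3. Control replicate 2 lay within the siNCOA4 range, so the groups overlapped. The log2 fold change was 0.12, with a 95% interval of -0.04 to 0.28 (limma, adjusted p = 0.356). It was 0.068 without control replicate 1 and 0.195 without control replicate 2. Abcg1 (chromosome 17, 31057675 to 31117988, plus strand), which passes cholesterol to HDL, was at 57.1, 60.4 and 64.1 TPM and at 58.2, 57.6 and 57.2 TPM in the same order. Its 3 siNCOA4 values fell within the control range, and its interval of -0.19 to 0.05 around -0.07 spans 0 (limma, adjusted p = 0.495). That value was -0.109 without control replicate 1 and -0.026 without control replicate 3. The ratio of Abca1 to Abcg1 was 2.38 ± 0.225 in siControl and 2.71 ± 0.0647 in siNCOA4 (SD, n = 3 each), higher in 3 of 3 siNCOA4 libraries than in every control (p = 0.1 in the exact permutation test, two-sided, which with 3 against 3 can go no lower).

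Apoe (chromosome 7, 19696109 to 19699188, minus strand), which encodes the apolipoprotein that macrophages secrete with cholesterol, was at 473, 375 and 464 TPM in siControl replicates 1 to 3. In siNCOA4 it was at 574, 565 and 574 TPM, with 6587 to 7401 reads. Every siNCOA4 library was above every control, and the control values were spread widely, with replicate 2 the lowest. The mean was 437 ± 54.3 against 571 ± 4.82 TPM (SD, n = 3 each). On the log2 scale this was a rise of 0.39, with a 95% interval of 0.18 to 0.60. The adjusted p of 0.0535 from limma lay just outside the threshold and was between 0.00221 and 0.181 over all settings. Apoe passed in 5 of 16 settings, among them the fits without siControl replicate 1 (adjusted p = 0.0408) and without replicate 2 (adjusted p = 0.0273, where the log2 fold change was 0.28).

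Abca9 (ENSMUSG00000041797; chromosome 11, 110100749 to 110168196, minus strand) encodes a full ABCA transporter, of the same family as ABCA1, whose cargo is not well defined. It was the least abundant of the 10 in control cells, at 3.29, 4.65 and 4.36 TPM in siControl replicates 1 to 3, from 152, 227 and 183 reads. In siNCOA4 replicates 1 to 3 it was at 12.6, 12.6 and 12.1 TPM, from 590, 553 and 590 reads. The siNCOA4 values lay close together and well above every control. The ratio of the group means was 3.04, and the log2 fold change on the log2(TPM + 0.5) scale was 1.51 (SE 0.124, 95% interval 1.21 to 1.80, limma adjusted p = 0.00234). It was called in 16 of 16 settings, with a log2 fold change of 1.37 to 1.62 and an adjusted p of at most 0.0272. With this rise Abca9 passed Nr1h3 in the order of the 10 genes. No other step of that order changed, since the values of the other neighbours (Scd2, Apoe, Abca1, Srebf1, Lpcat3, Abcg1, Nr1h2, Mylip and Nr1h3, from high to low) did not overlap in any of the 6 libraries.

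Abca9 lies in a row of 5 ABCA genes on chromosome 11, all on the minus strand, in the order Abca8b, Abca8a, Abca9, Abca6 and Abca5. Abca6, which ends 8.6 kb upstream of the start of Abca9, was at 0.0968, 0.153 and 0.0711 TPM in siControl and at 0.510, 0.510 and 0.430 TPM in siNCOA4. These are 10 reads in all in siControl and 45 in siNCOA4, with every siNCOA4 library above every control. Abca6 was under the expression filter of a mean of 0.5 TPM, and in the fit without that filter its log2 fold change was 0.70 (limma, adjusted p = 0.0420). Abca8a, the neighbour on the other side, was at 0.204 ± 0.0488 and 0.211 ± 0.102 TPM, and Abca8b at 1.22 ± 0.211 and 1.38 ± 0.152 TPM (SD, n = 3 each). Abca5 was at 0.668 ± 0.117 and 0.659 ± 0.158 TPM. The values of Abca8a, Abca8b and Abca5 overlapped between the groups, and those tested, Abca8b and Abca5, had adjusted p-values of 0.731 and 0.982 (limma).

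**Figure D3:**
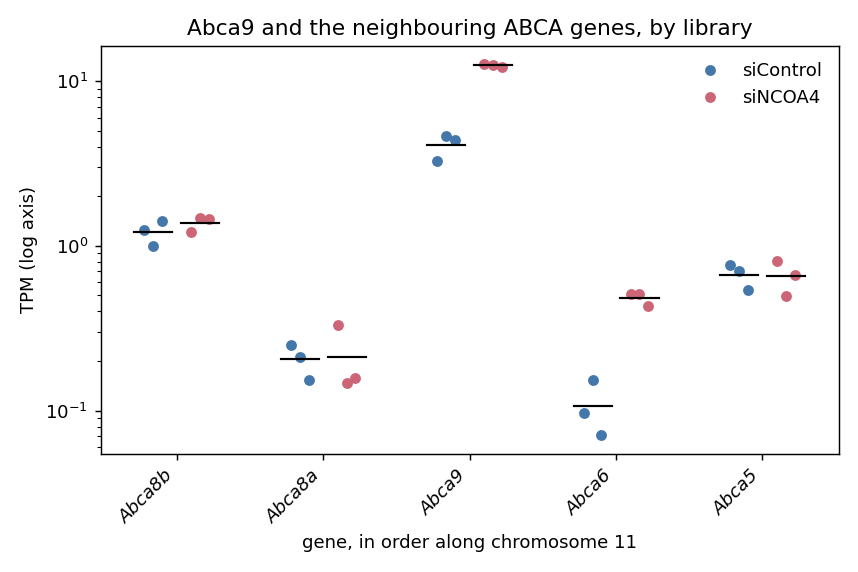
TPM on a log axis of the 5 ABCA genes in their order along chromosome 11; each point is 1 library (siControl in blue, siNCOA4 in red) and each bar a group mean. Abca9 and Abca6 are separated between the groups, and Abca8b, Abca8a and Abca5 overlap.

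The ratio of Abca9 to Abca8b rose from 3.46 ± 1.06 in siControl to 9.11 ± 1.17 in siNCOA4 (SD, n = 3 each), without overlap (p = 0.1 in the same exact permutation test). That of Abca9 to Abca6 was 41.9 ± 16.9 and 25.9 ± 2.04, from few Abca6 reads. Of the 8045 stretches of 50 bases in annotated Abca9 transcripts, 13 occur in Abca6 and 0 in Abca8a, Abca8b or Abca5. Whether reads were assigned to the wrong gene of the row was not tested. Farther out on the same chromosome, within 600 kb, Prkar1a, the regulatory subunit of protein kinase A, was at 174 ± 3.53 and 169 ± 2.62 TPM (limma, adjusted p = 0.614), and Arsg, a lysosomal sulfatase, at 49.1 ± 3.86 and 51.4 ± 2.28 TPM (adjusted p = 0.620). Fam20a, a pseudokinase of the secretory pathway, was higher in every siNCOA4 library, at 3.49 ± 0.229 and 4.27 ± 0.0625 TPM, and Wipi1, an autophagy protein, was at 6.06 ± 1.08 and 4.66 ± 0.245 TPM, with unadjusted p-values of 0.0331 and 0.0458 and adjusted p-values of 0.188 and 0.223 (limma). The antisense transcript Gm11684 was at 7.18 ± 3.10 and 9.72 ± 1.64 TPM (log2 fold change 0.49, limma adjusted p = 0.418). None of the 5 tested genes of this stretch outside the ABCA row was called, where 5.42% of all genes were. So few genes cannot show whether the change was confined to the row.

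Mylip (chromosome 13, 45389742 to 45412022, plus strand), the ubiquitin ligase of this programme, was at 29.6, 27.6 and 28.3 TPM in siControl replicates 1 to 3. In siNCOA4 it was at 30.3, 28.6 and 28.3 TPM. These were the closest pair of groups among the 10, with a log2 fold change of 0.03 (95% interval -0.09 to 0.15, limma adjusted p = 0.800) whose sign turned with median centring, with quantile normalization and without siNCOA4 replicate 1. Leaving out control replicate 1 gave 0.054, leaving out control replicate 2 gave 0.005, and leaving out siNCOA4 replicate 3 gave 0.046. Lpcat3 (chromosome 6, 124663027 to 124704418, plus strand) was at 81.6, 73.1 and 75.4 TPM in siControl and at 70.5, 70.7 and 69.0 TPM in siNCOA4. Every siNCOA4 library was below every control, but the step was small, with a log2 fold change of -0.13 (95% interval -0.25 to -0.01) that did not pass the adjusted threshold (limma, adjusted p = 0.203) and was -0.083 without control replicate 1.

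The lipid synthesis members were abundant. Srebf1 (chromosome 11, 60199089 to 60222581, minus strand) was at 90.0, 97.4 and 110 TPM in siControl replicates 1 to 3 and at 102, 105 and 106 TPM in siNCOA4 replicates 1 to 3. The siNCOA4 values lay inside the control range, with a log2 fold change of 0.08 (95% interval -0.10 to 0.25, limma adjusted p = 0.594). That value was 0.009 without control replicate 1 and 0.152 without control replicate 3, and a gene-level value cannot separate the SREBP-1a from the SREBP-1c transcript. Scd2 (chromosome 19, 44293674 to 44306864, plus strand), a desaturase that makes monounsaturated fatty acids, was the most abundant of the 10, at 955, 1045 and 992 TPM in siControl and at 1049, 1071 and 1023 TPM in siNCOA4. Its log2 fold change was 0.07 (95% interval -0.04 to 0.18, limma adjusted p = 0.424), with control replicate 2 inside the siNCOA4 range, and was 0.042 without control replicate 1. Scd2 exceeded Scd1, the main desaturase of liver and an LXR target, by 44.0 to 74.7 across the 6 libraries, with no separation of the groups. The annotated Scd2 transcripts share 2.66% of their stretches of 50 bases with Scd1, so a small part of the reads could belong to either gene.

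**Figure D4:**
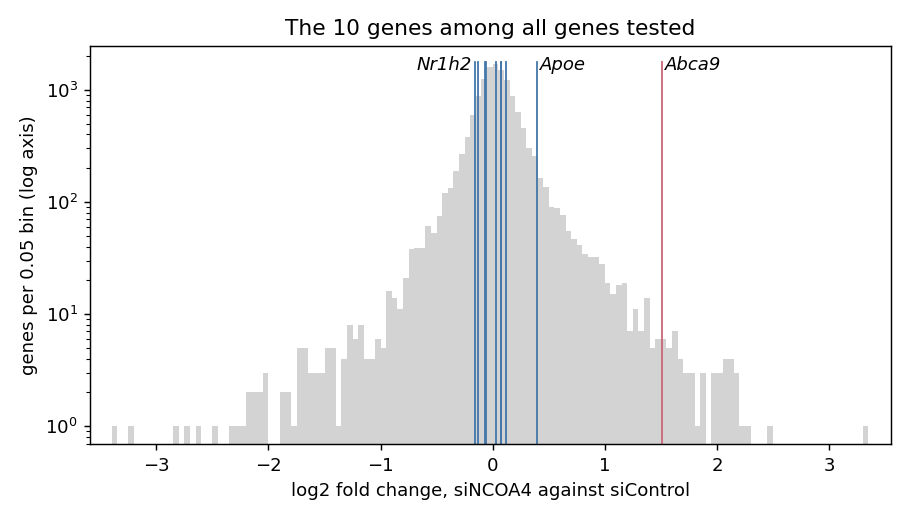
Distribution of the log2 fold changes of all 13829 genes tested, as genes per bin on a log axis, with a line at each of the 10 genes (red for the gene called, blue for the others). The line of Abca9 stands at 1.51 in the upper tail, and 8 lines lie in the central peak between -0.16 and 0.12.

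Of 24 other known LXR targets that were in the files, 14 were expressed enough to be tested, and 2 rose, 1 fell and 11 did not pass, where 5.42% of all genes were called (3.11% higher and 2.31% lower). Their median log2 fold change was 0.04. Smpdl3a, a secreted phosphodiesterase, rose from 24.1 ± 2.66 to 36.3 ± 2.32 TPM (SD, n = 3 each; log2 fold change 0.58, limma adjusted p = 0.0170). Mertk, the receptor with which macrophages take up apoptotic cells, rose from 28.0 ± 2.02 to 39.2 ± 0.737 TPM (log2 fold change 0.48, limma adjusted p = 0.00965). Lpl, the lipase that releases fatty acids from lipoproteins, fell from 26.0 ± 1.37 to 18.8 ± 0.581 TPM (log2 fold change -0.45, limma adjusted p = 0.00965). All 3 differed without overlap between the groups, in both directions. The calls rest on few libraries: without siNCOA4 replicate 2 or 3, 0 of the 14 had an adjusted p under 0.05, and without siNCOA4 replicate 1 it was 1. Smpdl3a also missed the threshold without siControl replicate 2 or 3 (adjusted p = 0.0507 and 0.0548).

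Among the other ABCA and ABCG transporters, 7 of 19 were tested, and 2 rose, where 3.11% of all genes were called higher. Abca7, a relative of ABCA1 linked to phagocytosis, was at 8.82, 8.70 and 9.35 TPM in siControl and at 11.6, 11.6 and 11.5 TPM in siNCOA4 (log2 fold change 0.35, limma adjusted p = 0.0249). Abca3, the phospholipid transporter of lung surfactant, went from 28.3 ± 1.58 to 34.5 ± 1.15 TPM (log2 fold change 0.28, limma adjusted p = 0.0387). Both stayed under a fold change of 1.5, and neither passed without siControl replicate 2 or 3 or without any 1 of the siNCOA4 libraries. Abcg5 and Abcg8, the LXR-driven sterol transporters of liver and gut, were at 0 in every library.

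Enzymes that make or remove LXR ligands and genes of sterol uptake and storage formed a list of 26, of which 18 were tested, 1 rose and 2 fell, again beside 5.42% of all genes called. Cyp27a1, the mitochondrial enzyme that makes the LXR ligand 27-hydroxycholesterol, was at 47.2, 50.9 and 48.0 TPM in siControl and at 64.9, 71.1 and 66.6 TPM in siNCOA4. Every siNCOA4 library was above every control, and the log2 fold change of 0.47 (SE 0.0522, limma adjusted p = 0.00677) was called in 16 of 16 settings. Plin2, the coat protein of lipid droplets, fell from 660 ± 37.0 to 547 ± 11.5 TPM, and Nceh1, which hydrolyses stored cholesterol esters, fell from 41.5 ± 1.59 to 34.4 ± 1.28 TPM (SD, n = 3 each; limma, adjusted p = 0.0305 and 0.0324). Neither of the latter passed without siControl replicate 2 or 3 or without any 1 of the siNCOA4 libraries. Ch25h, the enzyme for 25-hydroxycholesterol, was listed at 0 in every library, as was Fabp5, a fatty acid binding protein. A listed 0 does not show that a gene is silent, since loss of its reads in mapping or counting was not tested.

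**Figure D5:**
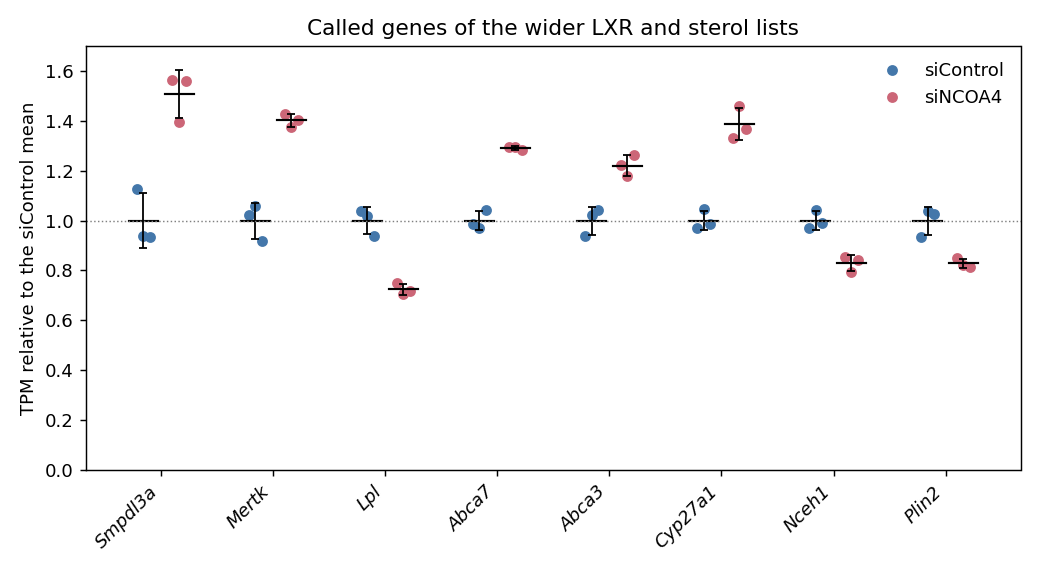
TPM relative to the siControl mean, on a linear axis from 0, for the 8 genes called in the wider lists; each point is 1 library (siControl in blue, siNCOA4 in red), with the mean and SD of 3 libraries. The siNCOA4 points of Smpdl3a, Mertk, Abca7, Abca3 and Cyp27a1 lie above, and those of Lpl, Nceh1 and Plin2 below, all control points.

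The partners of LXR and the fatty acid list held no call in limma, where over all genes 5.42% were called and 21.6% had an unadjusted p under 0.05. The share called by limma-voom on rebuilt reads was larger, with 1516 of 13604 genes, and is the background for its counts here. For RXR, corepressors and coactivators, 17 of 18 genes were tested and 0 passed the adjusted threshold in limma, with 6 at an unadjusted p under 0.05 and 3 called by limma-voom on rebuilt reads. The list of fatty acid synthesis and desaturation held 22 genes, among them the SREBP pathway genes Insig1, Insig2, Scap and Srebf2. It shared genes such as Fasn, Scd1 and Fads1 with the other LXR targets. Of the 22, 19 were tested and 0 passed, with 2 called by limma-voom. The 4 at an unadjusted p under 0.05 in limma were Insig1, Acly, Me1 and Srebf2. The median log2 fold changes of the partners and of the fatty acid list were 0.01 and -0.01, beside the 0.03 of all genes.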

How the data were processed

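RNA-seq of 3 siControl and 3 siNCOA4 libraries of J774 cells was used. Per the labels, total RNA went into stranded mRNA libraries, and the submitters' processing notes name Trimmomatic 0.33, HISAT2 2.1.0, featureCounts and edgeR, with build mm10. Whether strand was used in counting is not given in the sources used here. The authors deposited TPM per gene, 1 table per library, each summing to 1000000, with no scaling between libraries. Symbols, positions and exon lengths came from GENCODE M21 (GRCm38), which held 55227 of the 55487 identifiers.

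Reads were rebuilt as TPM times exon length, divided by the value of 1 read. They came out whole (within 0.01) in all 6 libraries for 98.4% of 21096 genes above 0, and served for depth and limma-voom. The study tested raw counts, while TPM need a log scale, so limma 3.58.1 (R 4.3.3) was run on log2(TPM + 0.5) of genes whose TPM averaged 0.5 or more, with eBayes and a trend, no block and Benjamini-Hochberg adjustment. Such fold changes understate those of low genes. Calls had an adjusted p under 0.05. Single ratios had an exact permutation test (Python 3.11.15, scipy 1.17.1). The fit was also run on simulated reads with the same added spread in every library. Those held no library that stood apart as siControl replicate 1 does, so that run does not check the calls made here. Labels do not say whether replicates shared a culture, so p-values cover the spread between these libraries.

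The 10 genes and all lists were chosen with earlier results of these data known. Named are the 10, Ncoa4, the ABCA genes beside Abca9, and up to 6 called genes per list. Other names (Prkar1a, Arsg, Fam20a, Wipi1, Gm11684, Scd1, uncalled genes of the fatty acid list, genes at 0) were chosen after their values were seen. Alternatives were 9 other settings and each library left out in turn. The authors' own comparisons were not used.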

Additional observations from a re-analysis of the deposited data

How the results depend on the processing

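Abca9, Ncoa4 and Cyp27a1 kept their direction and their call under all 15 alternatives, and Nr1h2, Abca1, Abcg1, Lpcat3, Srebf1 and Scd2 kept their direction without a call. Members called numbered 2 (Abca9 and Apoe) with a mean TPM of at least 5, quantile normalization or limma-voom, and 1 to 2 with single libraries left out. Genes called in all, 750 as reported, were 499 without the filter, 404 without a trend, 1516 with limma-voom, 161 with the replicate block, and 127 to 807 with single libraries left out. The deviations of same-numbered libraries were hardly correlated (-0.019 to 0.028, beside -0.041 to 0.02 for other pairs). With so few libraries this cannot tell whether those of the same number shared a culture. The members' median log2 fold change of 0.05 became -0.008 with median centring and 0.005 with quantile normalization, and was 0.025 (without siControl replicate 1) to 0.055 with libraries left out. Mylip turned to -0.03 with median centring, -0.01 with quantile normalization and -0.001 without siNCOA4 replicate 1 (-0.001 to 0.054 with libraries left out), Nr1h3 to 0.015 without siNCOA4 replicate 1 (-0.105 to 0.015), and Abca5 to 0.042, 0.01 and 0.088 without siControl replicate 1, siControl replicate 2 or siNCOA4 replicate 2 (-0.11 to 0.088).

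Coregulators called were 1 with median centring and 3 with limma-voom, and 0 with any library left out. Other LXR targets called were 1 with the replicate block and 0 to 3 with libraries left out. Transporters called were 1 without the filter (Abca6, while Abca7 and Abca3 missed with adjusted p = 0.0519 and 0.0581 in limma), 1 without a trend (Abca7), 0 with the replicate block and 0 to 2 with libraries left out. Sterol genes called were 1 without a trend, 5 with limma-voom, 1 with the replicate block and 1 to 3 with libraries left out. Genes called in the fatty acid list, which holds SREBP pathway genes as well, were 1 with median centring, 1 with quantile normalization and 2 with limma-voom. With libraries left out they were 0 to 1. Promoter windows with the repeat were 2 at the looser limit. The cause of these differences was not tested. Depth limits Abca6, Abca8a and the transporters under 0.5 TPM, which rest on few reads.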
